A study of Mus musculus with 4 samples.

Results

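Broad regions of open chromatin that all 4 libraries of sorted mouse retinal endothelium held in common were described here, 593 of the 5120 regions held by all 4 libraries (11.6%) and of the 25263 merged regions in all (2.35%). Open chromatin was measured by ATAC-seq, in which a transposase cuts accessible DNA and adds sequencing adapters, in endothelial cells isolated from retina by FACS, with 2000 cells per library. The Zeb1-CKO group was 2 libraries from C57BL/6 mice at postnatal day 16 whose genotype label reads Zeb1 knockdown. The control group was 2 libraries from C57BL/6 mice of the same age with a control genotype. The driver of the deletion, the allele and the surface markers of the sort are not given in the labels. The labels are also silent on whether a group's libraries were made from different mice, so their spread may be technical only.

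The regions were chosen on measured values. Peaks on the 19 autosomes and X that overlapped or touched were merged across the 4 libraries, and a region was kept when every library had a peak in it and its merged width was at least 1200 bp. The merged width of the kept regions is therefore a description, with no test. Their median merged width was 1395 bp, with quartiles of 1290 and 1582 bp and a maximum of 3668 bp, and 37 of them reached 2000 bp. The other 4527 shared regions had a median of 656 bp. Just inside the limit lay regions at Cdc5l (1200 bp), at Yrdc, Mtf1 and 1110065P20Rik (1201 bp) and at Scamp1 (1202 bp). Just outside it, at 1199 bp each, lay regions at Tuba1c, Ubr2 and Dynll1. The 593 regions held 883 of the 4009.6 kb of shared regions (22.0%).

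An active gene start is usually kept free of nucleosomes over a short stretch where transcription factors and RNA polymerase bind. Long open stretches are known from strongly transcribed genes, from clusters of neighbouring enhancers and from genes that signals switch on within minutes, such as the AP-1 subunits Jun and Junb. Zeb1 is a zinc-finger repressor that binds E2-boxes and recruits corepressors such as Ctbp2. Retinal endothelium at this age still matures its capillary network and its barrier.

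The sequences below show what lies just before the starts of 8 genes at broad regions, chosen as members of the groups that the results return to and because their starts are in the promoter table. Each is the 150 bases before the gene start, 5′ to 3′ on the gene's strand, from RefSeq on GRCm38.p6, whose coordinates are those of mm10. Capitals mark GC boxes (GGGCGG or its reverse complement CCGCCC, bound by Sp and Kruppel-like factors), CCAAT boxes (CCAAT or ATTGG) and TATA boxes (TATAAA).
Jun, chr4:95052223-95052372, minus strand, AP-1 subunit: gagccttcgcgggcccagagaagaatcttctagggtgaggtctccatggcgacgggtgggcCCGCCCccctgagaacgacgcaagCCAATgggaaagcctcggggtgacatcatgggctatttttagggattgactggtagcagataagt
Junb, chr8:84978749-84978898, minus strand, AP-1 subunit: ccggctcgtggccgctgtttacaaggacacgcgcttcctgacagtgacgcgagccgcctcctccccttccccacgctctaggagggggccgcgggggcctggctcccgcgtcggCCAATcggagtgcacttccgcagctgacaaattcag
Klf11, chr12:24651221-24651370, plus strand, Kruppel-like factor: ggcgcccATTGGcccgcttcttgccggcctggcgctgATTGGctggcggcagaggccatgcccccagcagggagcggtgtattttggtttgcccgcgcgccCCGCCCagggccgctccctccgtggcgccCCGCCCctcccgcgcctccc
Socs3, chr11:117969367-117969516, minus strand, feedback inhibitor of cytokine signalling: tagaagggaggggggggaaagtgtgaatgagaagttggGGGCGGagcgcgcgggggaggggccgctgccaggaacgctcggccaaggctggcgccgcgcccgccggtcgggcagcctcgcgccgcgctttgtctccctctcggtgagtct
Tagln2, chr1:172500096-172500245, plus strand, actin-binding transgelin: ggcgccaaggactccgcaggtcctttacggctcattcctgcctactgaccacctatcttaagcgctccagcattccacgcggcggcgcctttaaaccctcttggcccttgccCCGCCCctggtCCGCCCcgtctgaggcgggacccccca
Tpm4, chr8:72135138-72135287, plus strand, tropomyosin: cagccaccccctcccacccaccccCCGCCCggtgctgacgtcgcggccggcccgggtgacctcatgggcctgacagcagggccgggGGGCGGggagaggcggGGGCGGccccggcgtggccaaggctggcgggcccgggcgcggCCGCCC
Ubb, chr11:62551021-62551170, plus strand, polyubiquitin: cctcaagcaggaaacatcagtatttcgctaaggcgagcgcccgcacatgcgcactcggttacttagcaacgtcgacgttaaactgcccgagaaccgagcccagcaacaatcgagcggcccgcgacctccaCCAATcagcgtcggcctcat
Vim, chr2:13574161-13574310, plus strand, vimentin, an intermediate filament protein: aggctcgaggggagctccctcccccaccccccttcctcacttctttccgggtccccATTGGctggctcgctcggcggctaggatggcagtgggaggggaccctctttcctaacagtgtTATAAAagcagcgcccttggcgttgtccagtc
Every one of these 8 stretches lay inside its broad region. Tpm4 held 4 GC boxes, Klf11 held 2 GC boxes and 2 CCAAT boxes, and Vim was the 1 gene of the 8 with a TATA box in these bases. A match of letters is a description and not a binding site.

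Each peak list was called on its own library, and the lists differed in length. The Zeb1-CKO libraries held 13689 and 19886 peaks, and the control libraries 7608 and 13672. Read depth is unknown, so a narrow or missing peak may also reflect shallow sequencing. Of 25 endothelial identity genes in the gene table, 13 and 17 had a peak within 1 kb of an end in the Zeb1-CKO libraries, against 6 and 15 in the control libraries. Pecam1, Tek, Emcn, Egfl7, Icam2, Mmrn2 and Ptprb had none in any library. Of 22 photoreceptor markers, 2 and 10 had one in the Zeb1-CKO libraries, against 2 and 10 in the control libraries, so both libraries numbered 2 held more of them. Mural and leukocyte markers were near 0, with at most 1 of 16 and at most 2 of 18 in any library. In a pool of cells, fewer cells with an open site and fewer open copies per cell cannot be told apart. At the ends of Zeb1 itself, peaks covered 800 and 586 bp in the Zeb1-CKO libraries, against 0 and 690 bp in the control libraries, and no broad region lay there. The deposited lists do not show the deleted part of the gene, so this does not check the genotype.

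The merged width was seldom present in every library. In the Zeb1-CKO libraries the median stretch covered per broad region was 1205 and 1188 bp, against 595 and 823 bp in the control libraries. A single library covered at least 1200 bp of 299 and 290 regions in the Zeb1-CKO libraries, against 84 and 144 in the control libraries. For 118 regions no library reached 1200 bp alone, for 260 exactly 1 did, for 122 it was 2, for 59 it was 3 and for 34 all 4. The stretch covered by all 4 libraries at once had a median of 395 bp, which was 27.6% of the merged width, against 318 bp and 52.1% for the other shared regions. In 10 broad regions the 4 libraries had no base in common. The width did not come from many short pieces: 552 of the 593 regions (93.1%) were 1 peak in every library, and no library had more than 2 peaks in any of them.

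**Figure D1:**
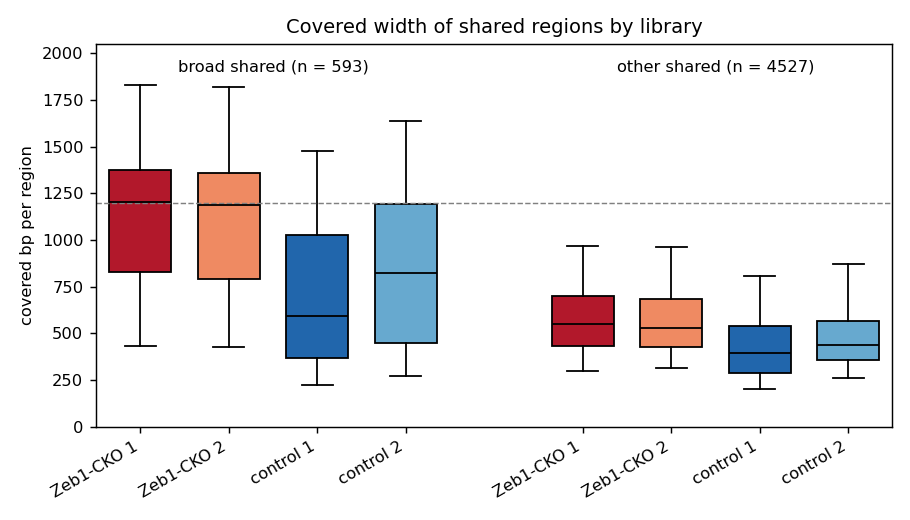
Covered bp per shared region (vertical axis) in each library, for the 593 broad regions and the 4527 other shared regions. Boxes span the quartiles with the median as a line, whiskers the 5th to 95th percentiles, and the dashed line marks 1200 bp. Medians of the broad regions were 1205 and 1188 bp in the Zeb1-CKO libraries and 595 and 823 bp in the control libraries.

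Averaged over the 593 regions, peaks covered 1148 and 1125 bp in the Zeb1-CKO libraries, against 724 and 860.1 bp in the control libraries. Both Zeb1-CKO libraries lay above both control libraries. The group means were 1137 ± 15.9 bp in Zeb1-CKO and 792 ± 96.6 bp in control (SD, n = 2 each), a difference of 345 bp, or 1.44 times. The widths of these same peaks took part in the choice of the regions, so the difference is a description with no test. Among the other shared regions the means were 574 ± 6.63 bp in Zeb1-CKO and 459 ± 34.6 bp in control (SD, n = 2 each), a ratio of 1.25. The broad regions were 1.98 times as wide as the others in each Zeb1-CKO library, against 1.67 and 1.78 times in the control libraries. The difference was 132 bp where every library had to cover 50% of a region and 116 bp where all 4 libraries covered 1200 bp. The rule favours libraries with wide peaks, because 1 wide peak is enough to make a merged region broad.

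Region by region, 285 of the 593 (48.1%) were covered more widely in both Zeb1-CKO libraries than in either control library, beside 50% of all 5120 shared regions. The reverse held for 8 (1.35%), beside 2.15% of all shared regions. The shares among broad regions were thus near those of shared regions of any width. When each library's covered bp were divided by its own mean over all shared regions, 132 broad regions (22.3%) were wider in both Zeb1-CKO libraries, beside 15.0% of all shared regions, and 105 (17.7%) in both control libraries, beside 24.2%. At least 1200 bp was covered in both Zeb1-CKO libraries and in neither control library at 69 regions, and the reverse was seen at 1. By the rule, no shared region outside the broad ones can reach that width, so these counts have no background share. The whole lists also held more peaks of at least 1200 bp in Zeb1-CKO, 466 and 523, against 159 and 188 in control.

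Covered width was also described in a library that took no part in the choice, by choosing broad regions on 3 libraries and measuring the one left out. In Zeb1-CKO replicate 1, regions broad in the other 3 libraries had a median covered width of 1164 bp, against 555 bp for regions that the other 3 shared at ordinary width. Zeb1-CKO replicate 2 gave 1146 against 535 bp, control replicate 1 gave 566 against 398 bp and control replicate 2 gave 736 against 441 bp. The broad set was the wider one in each of the 4 libraries. A wider region is a longer target for the peaks of the left-out library, so it can meet longer ones. The comparison is thus tilted toward the broad set, and it is a description. These medians cover regions in which the left-out library had a peak. Zeb1-CKO replicate 1 held 98.9% of the 442 regions broad in the other libraries, against 98.0% of the ordinary ones. Zeb1-CKO replicate 2 held 98.9% of 464, against 99.0% of the ordinary ones. Control replicate 1 held 66.5% of 824, against 53.8%, and control replicate 2 held 97.3% of 552, against 96.5%. The shares of broad and ordinary regions were thus close in every library but control replicate 1. Regions are not replicates, and no p-value was taken over them.

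The broad regions lay at genes about as often as other shared regions. Of the 593, 427 (72.0%) lay within 1 kb of an end of a gene, against 75.1% of the others. A further 103 (17.4%) lay inside a gene away from its ends, against 14.3%, and 63 (10.6%) lay between genes, against 10.6%. The start of a gene in the promoter table was within 1 kb of 355 (59.9%), against 62.6%. Regions that held 2 gene starts on opposite strands, as at bidirectional promoters, numbered 45 (7.59%), against 7.93%. Another merged region lay within 10 kb of 34.2% of the broad regions, against 31.7% of the others. Chromosome 11 held the most, 58, then chromosome 7 with 47, and X held 9.

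Where a region contained exactly 1 known gene start, the merged stretch of the broad ones reached farther into the gene than ahead of it. This did not hold in every single library. Over 264 such regions the merged stretch had a median of 496 bp before the start and 892 bp after it, and 62.1% were longer after the start. Over 2233 other shared regions the medians were 307 bp before and 318 bp after, and 50.6% were longer after. By the peaks of a single library, 58.3% and 60.6% of the broad regions were longer after the start in Zeb1-CKO, against 42.4% and 52.3% in control. Within libraries, broad regions extended 596 and 660.5 bp past the start in the Zeb1-CKO libraries, against 190 and 354 bp in the control libraries (medians). Before the start the medians were 351 and 339 bp in the Zeb1-CKO libraries, against 276 and 284 bp in the control libraries. The groups did not overlap on either side, and the gap between them was the larger after the start. The same was seen at the other shared regions. There the medians after the start were 245 and 228 bp in Zeb1-CKO, against 154 and 173 bp in control. Before it they were 272 and 266 bp in Zeb1-CKO, against 218 and 246 bp in control. Peak widths took part in the choice of the broad regions, so their gaps are descriptions. The start used is the outermost one in the table, so an inner alternative start also counts as after it. Where every library had to cover 50% of a region, 45.9% of the broad regions were longer after the start, and with 1200 bp covered by all 4 libraries 38.5% were, so the longer reach after the start was not seen in regions that the libraries shared more fully.

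**Figure D2:**
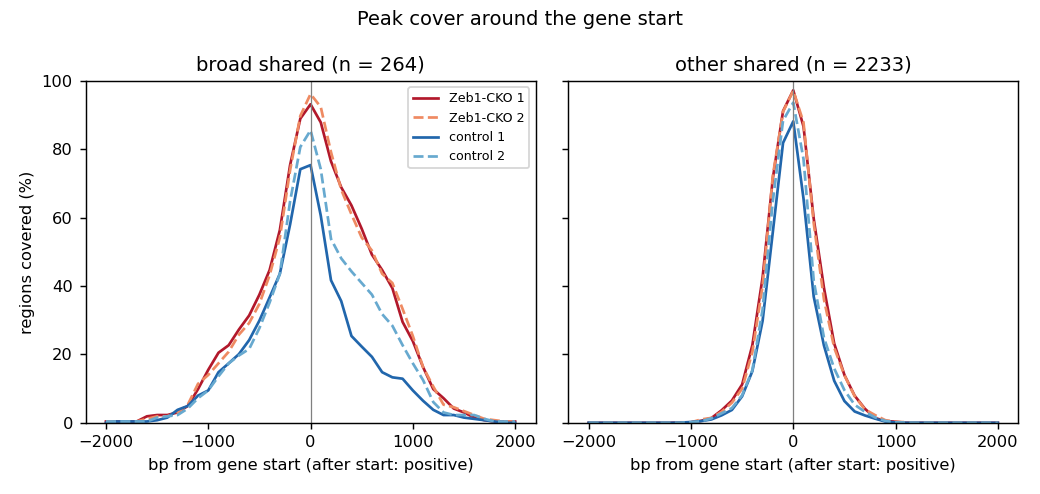
Share of regions covered by a peak (vertical axis, percent) at each distance from the gene start (horizontal axis, bp, positive into the gene), for 264 broad and 2233 other shared regions with 1 gene start inside. At broad regions the Zeb1-CKO lines lie above the control lines at 1000 bp past the start, with 23.9% and 25.4% in Zeb1-CKO and 9.47% and 17.4% in control, and the lines meet near the right edge; the median reach there was 596 and 660.5 bp in Zeb1-CKO and 190 and 354 bp in control.

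The DNA at these starts was rich in CpG, and no richer than at other shared regions. The promoter table gave 414 promoters at broad regions, each 300 bases long (250 before and 50 after the start). Their median GC content was 64.3%, against 63% at other shared regions and 56.3% over all 17285 promoters. Their median observed over expected CpG ratio was 0.837, against 0.826 at other shared regions and 0.585 over all promoters. A ratio above 0.6 was found for 83.8% at broad regions, against 85.7% at other shared regions and 48.9% over all. On either strand, the GC box GGGCGG was in 68.1% of promoters at broad regions, against 74.9% at other shared regions and 46.9% over all. The CCAAT box was in 44.4%, against 50.8% and 39.4%, and the TATA box TATAAA in 4.83%, against 4.94% and 13.4%. The E2-box letters CAGGTG, which Zeb1 is known to bind, were in 9.18% of promoters at broad regions, against 12.4% at other shared regions and 19.5% over all. The AP-1 letters TGACTCA were in 1.93%, against 2.65% and 4.61%, and the ETS letters CCGGAAG in 13.5%, against 21.2% and 12% over all. The letters TGACGT of the cyclic AMP response element were in 14.7%, against 16.5% and 8.87%. None of these 7 motifs contains another.

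In all, 523 of the 21645 genes in the table (2.42%) had an end within 1 kb of a broad region, which was 11.4% of the 4598 genes at a shared region. The shared regions themselves lay at 21.2% of genes. The median width of the widest shared region per gene was 714 bp. Some regions lay at a pair of genes: those of Cfl1 (with Mus81), Myl6 (Myl6b), Dnaja1 (Aptx), H1f4 (H2bc6), Spry4 (Arhgap26), Ctbp2 (Gm35364) and Rpl7 (Rdh10) cannot be given to 1 gene. Below, each list of genes is set beside these shares, and the lists carry no test. The bar plot of gene lists shows them together.

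**Figure D3:**
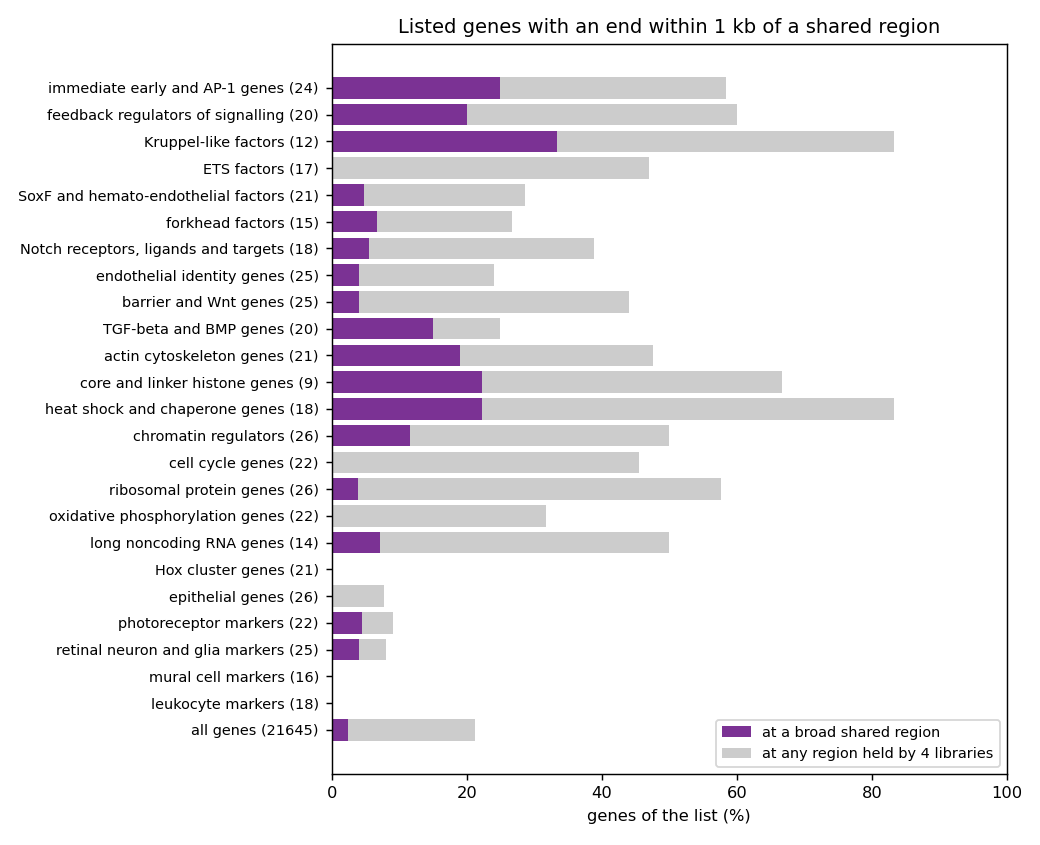
Percent of the genes of each list (horizontal axis, with the list's number of genes in the table in brackets) that had an end within 1 kb of a broad shared region (purple) or of any region held by all 4 libraries (grey). Immediate early genes reached 25% at broad regions, Kruppel-like factors 33.3%, and all genes 2.42%.

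Immediate early and AP-1 genes, which growth factors and stress induce without new protein synthesis, were at broad regions in 6 of 24 cases (25%), that is 42.9% of the 14 at a shared region. The median width over those 14 was 975 bp. The 6 were Egr1, Junb, Jun, Maff, Btg2 and Ier5, and 5 of them were more widely covered in both Zeb1-CKO libraries than in either control library, as were 50% of all shared regions. Jun was among the 5 by 1 bp, 1334 against 1333 bp. At Egr1, an immediate early zinc-finger factor (chr18:34859126-34861619, 2494 bp), peaks covered 1806 and 2140 bp in the Zeb1-CKO libraries, against 989 and 543 bp in the control libraries. Both Zeb1-CKO libraries were high there and the groups did not overlap. At Junb (chr8:84978551-84980368) the values were 1818 and 1681 bp in Zeb1-CKO, against 1268 and 1639 bp in control, and 1268 bp of it were open in all 4 libraries. At Jun (chr4:95051937-95053415) they were 1479 and 1334 bp in Zeb1-CKO, against 1333 and 1317 bp in control, so the 4 libraries differed little. At Maff, a small Maf protein (chr15:79347161-79348535), they were 1269 and 1305 bp in Zeb1-CKO, against 901 and 470 bp in control.

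Feedback regulators, the genes that signalling pathways switch on to limit themselves, were at broad regions in 4 of 20 cases (20%), with a median of 1056 bp over the 12 at a shared region. Without Zeb1-CKO replicate 1 the count was 2. At Socs3, which limits cytokine signalling (chr11:117968889-117970130), peaks covered 1229 and 1067 bp in the Zeb1-CKO libraries, against 389 and 313 bp in the control libraries. The groups were far apart there. At Smad6, an inhibitory Smad of the BMP pathway, they covered 1239 and 1395 bp in Zeb1-CKO, against 329 and 1323 bp in control, where control replicate 1 stood alone. At Tnfaip3, which restrains NF-kB signalling, they covered 1208 and 555 bp in Zeb1-CKO, against 347 and 456 bp in control. At Spry4, an inhibitor of receptor tyrosine kinase signalling, they covered 761 and 890 bp in Zeb1-CKO, against 828 and 517 bp in control, and the groups overlapped.

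Kruppel-like factors, zinc-finger proteins that bind GC-rich sites, were at broad regions in 4 of 12 cases (33.3%), with a median of 930.5 bp over the 10 at a shared region. At Klf10 (chr15:38298928-38301225) peaks covered 2284 and 1187 bp in the Zeb1-CKO libraries, against 1115 and 835 bp in the control libraries. At Klf11 they covered 1413 and 1064 bp in Zeb1-CKO, against 395 and 1224 bp in control. At Klf16 they covered 1319 and 789 bp in Zeb1-CKO, against 1038 and 1095 bp in control. Klf13 (chr7:63938748-63939979) went the other way, with 1030 and 550 bp in Zeb1-CKO, against 1081 and 1101 bp in control. Of the 4, 1 was thus wider in both Zeb1-CKO libraries and 1 in both control libraries, and at the rest the groups overlapped. Of all shared regions, 50% and 2.15% were wider in these directions.

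Actin cytoskeleton and shape genes were at broad regions in 4 of 21 cases, with a median of 958 bp over the 10 at a shared region. Without Zeb1-CKO replicate 1 the count was 2. At Tpm4, a tropomyosin that lies along actin filaments (chr8:72135096-72137065), peaks covered 1865 and 437 bp in the Zeb1-CKO libraries, against 295 and 292 bp in the control libraries, so its 1970 bp came almost wholly from Zeb1-CKO replicate 1. At Vim, the vimentin gene of mesenchymal and endothelial cells (chr2:13573494-13574706), they covered 987 and 1161 bp in Zeb1-CKO, against 793 and 453 bp in control. At Cfl1, the actin-severing cofilin, they covered 1580 and 1218 bp in Zeb1-CKO, against 924 and 1134 bp in control. At Myl6, a myosin light chain, they covered 770 and 602 bp in Zeb1-CKO, against 958 and 355 bp in control, with overlap. Tagln2, an actin-binding transgelin that was in none of the lists, shared the broad region chr1:172499775-172502333 with Igsf9, where peaks covered 2447 and 2537 bp in Zeb1-CKO, against 778 and 986 bp in control. This was the largest gap in favour of Zeb1-CKO among non-overlapping regions at gene ends, 1610 bp between the group means.

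Heat shock and chaperone genes were at broad regions in 4 of 18 cases, with a median of 858 bp over the 15 at a shared region. Without control replicate 2 the count was 2. At Ubb, a polyubiquitin gene (chr11:62550028-62551875), peaks covered 1765 and 1823 bp in the Zeb1-CKO libraries, against 227 and 885 bp in the control libraries. At Hsp90ab1, a constitutive Hsp90 chaperone, they covered 1063 and 1540 bp in Zeb1-CKO, against 891 and 1472 bp in control. At Hspa8, the constitutive Hsp70 chaperone, they covered 854 and 854 bp in Zeb1-CKO, against 806 and 1343 bp in control. At Dnaja1, an Hsp70 cochaperone, they covered 1197 and 1123 bp in Zeb1-CKO, against 216 and 1266 bp in control. Only at Ubb did the groups stand apart among these 4, with both Zeb1-CKO libraries wider, as at 50% of all shared regions. Of 21 listed histone symbols 9 were in the gene table, and 2 of those, the linker histone genes H1f4 and H1f2, were at broad regions. Core histone genes that the list did not hold under their current symbols, among them H2bc6, H4c3 and H3c15, were at broad regions too. At H1f2 peaks covered 1293 and 1131 bp in Zeb1-CKO, against 1100 and 1111 bp in control.

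Among chromatin regulators 3 of 26 genes were at broad regions, with a median of 932 bp over the 13 at a shared region. At Ezh2, the methyltransferase of Polycomb complex PRC2, peaks covered 1084 and 1280 bp in the Zeb1-CKO libraries, against 406 and 396 bp in the control libraries. At Ctbp2, a corepressor that Zeb1 is known to recruit, they covered 1047 and 1251 bp in Zeb1-CKO, against 830 and 473 bp in control. At Ep300, a histone acetyltransferase, they covered 676 and 1414 bp in Zeb1-CKO, against 435 and 516 bp in control. At each of these 3 both Zeb1-CKO libraries lay above both control libraries, as at 50% of all shared regions.

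Cdh5, the VE-cadherin of endothelial junctions (chr8:104099162-104101739), was the 1 of 25 endothelial identity genes at a broad region (4%, beside 2.42% of all genes), and its 2578 bp placed it among the 10 widest. Peaks covered 2578 and 766 bp there in the Zeb1-CKO libraries, against 2111 and 580 bp in the control libraries. Its wide peaks were thus in the library numbered 1 of each group, and the groups overlapped. None of 17 ETS factors was at a broad region, although 8 were at shared regions of a median 711 bp. A single gene each came from the SoxF and hemato-endothelial factors (Hhex, of 21), the forkhead factors (Foxo3, of 15), the Notch genes (Hey1, of 18) and the barrier and Wnt genes (Zfp703, of 25). At Hhex, a homeodomain factor of early endothelium, peaks covered 1227 and 1205 bp in Zeb1-CKO, against 265 and 273 bp in control, and no base was covered in all 4 libraries. At Foxo3, a forkhead factor restrained by growth factor signalling, they covered 1910 and 1621 bp in Zeb1-CKO, against 1406 and 1643 bp in control, and 1406 bp were covered in all 4. At Hey1, a Notch target, they covered 778 and 1167 bp in Zeb1-CKO, against 372 and 722 bp in control. At Zfp703, a zinc-finger repressor, they covered 509 and 319 bp in Zeb1-CKO, against 1122 and 237 bp in control.

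The TGF-beta and BMP list had 3 of 20 genes at broad regions, out of 5 at any shared region. At Bmpr2, the type II BMP receptor, peaks covered 1244 and 1384 bp in the Zeb1-CKO libraries, against 332 and 298 bp in the control libraries. At Skil, a Smad corepressor, they covered 1325 and 1513 bp in Zeb1-CKO, against 1155 and 1442 bp in control. At Smad5, a BMP-activated Smad, they covered 1009 and 1254 bp in Zeb1-CKO, against 772 and 1018 bp in control. Bmpr2 was the 1 of these 3 where the groups stood apart, with both Zeb1-CKO libraries wider, as at 50% of all shared regions.

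Ribosomal protein genes were at a shared region in 15 of 26 cases with a median of 640 bp, and Rpl7 was the 1 at a broad region (3.85%, beside 2.42% of all genes). Of the 15 at a shared region this was 6.67%, below the 11.4% of all genes at a shared region. Cell cycle genes were at a shared region in 10 of 22 cases (median 660 bp) and oxidative phosphorylation genes in 7 of 22 (median 521 bp), with 0 at broad regions in both lists. Malat1 was the 1 of 14 long noncoding RNA genes, with peaks over 1102 and 587 bp in Zeb1-CKO, against 400 and 235 bp in control. With peaks of −log10 q of at least 3, broad regions lay at 2 immediate early genes, 1 feedback regulator, 4 Kruppel-like factors, 3 actin genes and 2 chaperone genes, beside 254 genes in all. Hox, mural and leukocyte genes were at no shared region, and of 26 epithelial genes 2 were at a shared region and 0 at a broad one. Of the photoreceptor markers Gnat2, the cone transducin, was at a broad region that also lay at Ampd2 and Gm12500, with 1537 and 1598 bp in Zeb1-CKO, against 508 and 1561 bp in control. Of the retinal neuron and glia markers Rbpms, a marker of ganglion cells, was at one, with 1250 and 237 bp in Zeb1-CKO, against 821 and 655 bp in control. The summed peak width at ends of photoreceptor markers was 2397 and 5398 bp in Zeb1-CKO, against 1247 and 6712 bp in control. Of its 22 markers 11 had no peak in any library, among them Nrl, Nr2e3, Sag and Otx2, and the part of such cells in the width at Gnat2 was not tested.

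**Figure D4:**
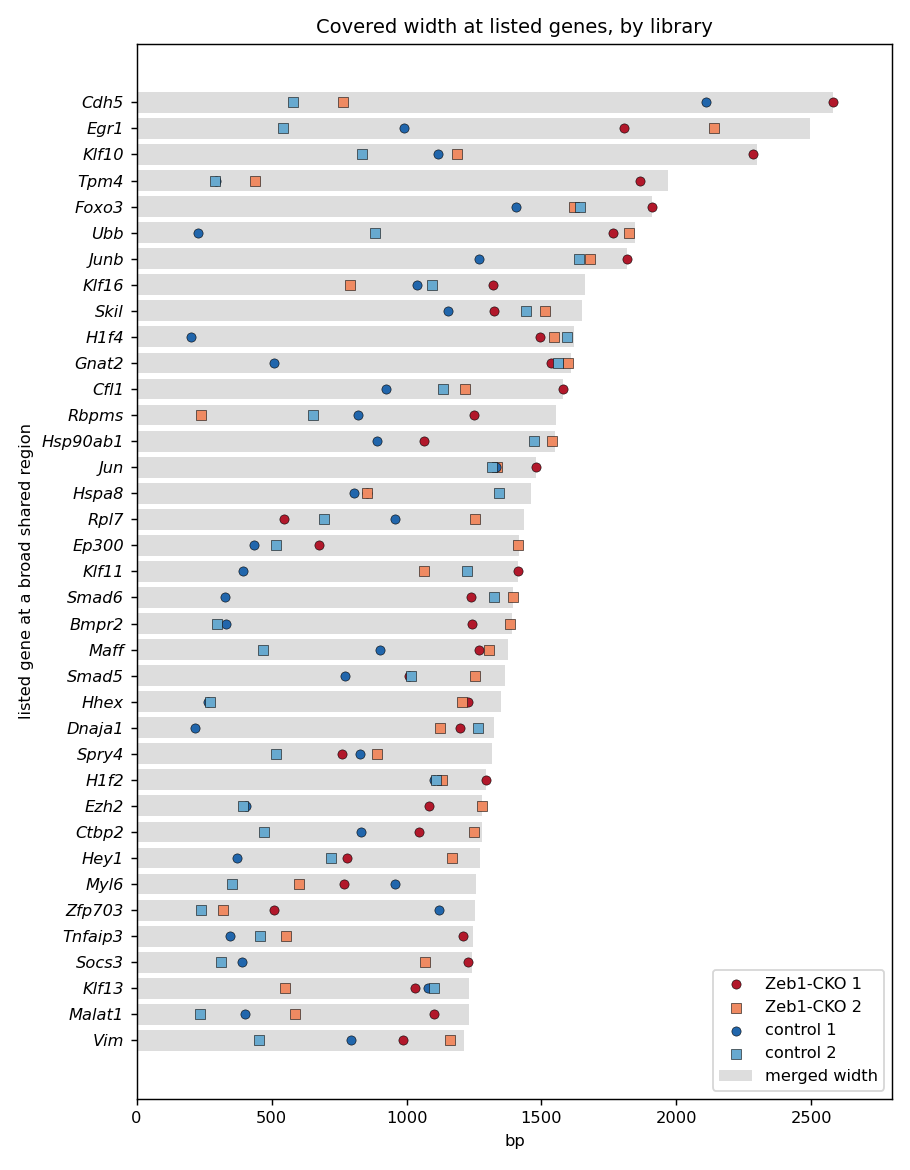
Covered bp in each library (points) and merged width (grey bars) at broad shared regions of listed genes, up to 4 per list in order of merged width, horizontal axis in bp. Points that coincide hide one another. Jun (1317 to 1479 bp) and H1f2 (1100 to 1293 bp) have all 4 points close together, whereas Hhex, Ubb and Bmpr2 have the Zeb1-CKO points at 1205 bp or more and every control point at 885 bp or less.

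The largest gaps at gene ends were also at genes outside the lists. At the ends of Arid2, a subunit of the PBAF chromatin remodelling complex, and Gm38469, peaks covered 1643 and 1526 bp in the Zeb1-CKO libraries, against 313 and 259 bp in the control libraries, and no base was covered in all 4. At Tmem131l they covered 1731 and 1855 bp in Zeb1-CKO, against 481 and 725 bp in control. In the other direction, the region at Cep85 and Sh3bgrl3 was covered over 403 and 341 bp in Zeb1-CKO, against 1096 and 683 bp in control. At Sgms1, a sphingomyelin synthase, peaks covered 320 and 931 bp in Zeb1-CKO, against 1057 and 1065 bp in control. At Rab43, a small GTPase, they covered 631 and 1435 bp in Zeb1-CKO, against 1449 and 1453 bp in control, and at Slc35f5 1072 and 876 bp in Zeb1-CKO, against 1255 and 1207 bp in control. Each was picked for not overlapping, so its gap is a description.

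Several loci held more than 1 broad region. Kdm6b, a histone H3K27 demethylase, had 3 within 10 kb of the gene, the widest inside it (chr11:69408580-69411969, 3390 bp). Peaks covered 2640 and 2321 bp of that one in the Zeb1-CKO libraries, against 389 and 1915 bp in the control libraries. Ccdc9 also had 3, the widest beyond its end (chr7:16294892-16297253) with 795 and 1276 bp in Zeb1-CKO, against 2180 and 1173 bp in control. A further 15 genes had 2, among them the transcription factor genes Bhlhe40, Bach2 and Maff, and Socs3. Neighbouring genes can share regions in this count, as Dnah2 does with Kdm6b, so the genes are not all separate loci. These loci were picked after their values were seen. The region at the low-coordinate end of Bhlhe40, a circadian and hypoxia-responsive repressor (chr6:108658480-108660804), was covered over 1519 and 2194 bp in Zeb1-CKO, against 1222 and 2148 bp in control.

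A stretch of at least 1200 bp that all 4 libraries covered without a gap was present in 26 of the 593 regions. At gene ends these included Junb, Foxo3, Bhlhe40, Azin1, Kpnb1, Sp4, Ccng2, Pnrc1 and the pair Rras and Scaf1. The longest such stretches, of 2527, 2027 and 2009 bp, lay between genes, 163209, 34505 and 320893 bp from the nearest gene end. The longest of those at a gene end was at Rras and Scaf1, 1833 bp (chr7:45016102-45018075). Inside Rbpj, the DNA-binding effector of Notch (chr5:53588903-53590764), 1672 bp were covered in all 4 libraries, 33124 bp from the nearest gene end. These genes were named after their values were seen.

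By the deposited fold enrichment, the broad regions ranked lower than the other shared regions. Ranked within its own list by the authors' fold enrichment, with 0 for the strongest and 100 for the weakest, the best peak of a broad region had a median percentile of 50 and 39.4 in the Zeb1-CKO libraries, against 51.6 and 43.3 in the control libraries. For the other shared regions the medians were 22.6 and 16.1 in Zeb1-CKO, against 36.0 and 22.2 in control. By −log10 q the broad regions ranked at 32.3 and 27.3 in Zeb1-CKO, against 45.5 and 36.0 in control. The others ranked at 21.1 and 14.9 in Zeb1-CKO, against 36.9 and 21.6 in control. From regions of 700 to 899 bp upward the fold rank fell with each wider class in every library. Whether the deposited fold of a peak depends on its length was not tested. The broad regions were also chosen on width, so this fall is a description. In regions of 1500 bp or more the median percentile was 61.7 and 45.3 in Zeb1-CKO, against 55.1 and 53.3 in control. Jun was among the higher ranked, at 36.4 and 22.3 in Zeb1-CKO and 17.5 and 35.1 in control. Hspa8 was at 7.34 and 10.7 in Zeb1-CKO and 8.5 and 13.8 in control. Other named loci were among the weaker by fold. Junb was at 92.0 and 86.2 in Zeb1-CKO and 98.2 and 87.7 in control. Cdh5 was at 98.9 and 65.2 in Zeb1-CKO and 97.5 and 60.8 in control. Tagln2 was at 98.3 and 87.3 in Zeb1-CKO and 37.4 and 79.8 in control. By −log10 q these loci ranked stronger in every library, with Junb at 26.8 and 28.2 in Zeb1-CKO and 70.8 and 45.7 in control.

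**Figure D5:**
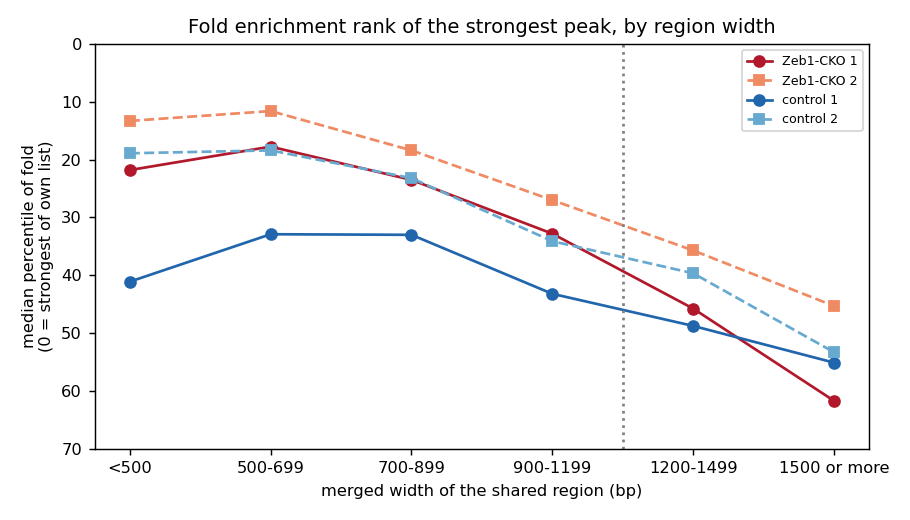
Median percentile of the strongest peak of each shared region within its own list by fold enrichment (vertical axis, 0 strongest, drawn at the top) against the merged width of the region (horizontal axis, bp classes), 1 line per library. The dotted line marks 1200 bp. In the widest class the medians were 61.7 and 45.3 in the Zeb1-CKO libraries and 55.1 and 53.3 in the control libraries.

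A small number of broad regions stood apart from the rest. Among the 10 widest, 2 lay inside Sfi1, 1 lay 35837 bp from the nearest gene end, that of Ccr1, and 1 (chr17:13550588-13553227) had no gene end within 50 kb. The widest of all, inside Sfi1 (chr11:3139819-3143486), was covered over 1010 and 1044 bp in the Zeb1-CKO libraries, against 3668 and 676 bp in the control libraries, so control replicate 1 alone gave its width. The other one inside Sfi1 (chr11:3144224-3146816) was covered over 2505 and 269 bp in Zeb1-CKO, against 2510 and 227 bp in control. The region on chromosome 17 was covered nearly alike, over 2563 and 2551 bp in Zeb1-CKO, against 2640 and 2540 bp in control. At LOC108167694 and Gm20783 (chr9:124422747-124425909) peaks covered 3095 and 3017 bp in Zeb1-CKO, against 2562 and 2052 bp in control. Within the first 3.2 Mb of a chromosome lay 9 of the 12 shared regions found there. Among them, 1 region (chr9:3012150-3014338) was among the weakest peaks by fold, with percentiles of 100 and 100 in Zeb1-CKO and 99.9 and 100 in control. By −log10 q its percentiles were 2.71 and 2.89 in Zeb1-CKO and 0.447 and 6.11 in control, among the strongest. In the weakest 10% by fold of every list were 5 broad regions, all of them in that group of 9, and 3 of the other shared regions.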

How the data were processed

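ATAC-seq was run on 4 libraries, 2 Zeb1-CKO and 2 control. The authors deposited 1 list of broad peaks per library, not pooled, on mm10. The tools listed in the submitters' processing notes are MACS2 2.1.1, bedtools 2.26.0, Bowtie2 2.3.2, SAMtools 1.3, Trimmomatic 0.36 and Picard 2.9.2. Their roles and settings, and any shift of reads for the transposase, are not stated there. For every peak the authors deposited its fold enrichment, a ratio to the local background of that library, with a −log10 p and a −log10 q. No −log10 q was below 1.01. The deposited score, a capped form of the −log10 q, was not used further. Fold enrichment and −log10 q served only to rank peaks within a list. Depth is unknown, so no counting interval could be given.

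Peaks were merged with Python 3.11.15, pandas 2.3.3 and numpy 2.4.6, and the merging was tested on simulated data. A library's covered width is the bp of a region under its peaks. The planned exact permutation test of the group means (scipy 1.17.1), which cannot go below 0.33 with 2 libraries a group, is not used, because peak widths chose the regions. Figures were drawn with matplotlib 3.10.9. Gene ends came from the RefSeq table on GRCm38.p6 (21645 genes), with a window of 1 kb on each side of either end. Starts and strands came from the RefSeq promoter table, which held 17285 of these genes (79.9%). A gene without an entry counts as having no known start. Of 496 listed genes in 24 lists, 482 were in the gene table.

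The regions, the gene lists and the tests were chosen with earlier results of these data known. Named genes were the gene with the nearest end within 50 kb of each of the 10 widest regions, up to 4 genes per list in order of merged width, up to 5 per direction among regions whose groups did not overlap, in order of the gap, and the 3 on each side of the width limit. Genes named outside this rule are said to be so or stand in a count. Alternatives planned with the design were a stricter −log10 q, other width limits, cover by each library, merging over 1 kb, other gene windows, scaling by library mean, the replicate block and each library left out. Added after the data were seen were the set without regions in the first 3.2 Mb and more results under the same settings. The replicate numbers are only numbers in the labels and were not taken to pair the libraries.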

Additional observations from a re-analysis of the deposited data

How the results depend on the processing

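The wider cover of broad regions in the Zeb1-CKO libraries kept its direction under every alternative run. Each run still chose regions by the widths of these same peaks, so the kept direction is a description and no support. The difference was smaller where the libraries had to share the width, as given above. With the replicate block the difference was 345 bp, with differences of 424 and 265 bp in the 2 numbered pairs. Counts moved with the definition of breadth. With peaks of −log10 q of at least 3 there were 265 broad regions, 134 wider in both Zeb1-CKO and 5 in both control libraries, 77.0% at a gene end, 254 genes and a mean fold percentile over the libraries of 30.8, against 46.1 as reported. Of all shared regions at that setting, 53.1% were wider in both Zeb1-CKO and 1.61% in both control libraries. A limit of 1000 bp gave 1051 regions, 483 and 26 of them wider in Zeb1-CKO and in control, 976 genes and 98.6% of regions with 1 peak, averaged over the libraries, against 97.5% as reported. A limit of 1500 bp gave 209 regions, 94 and 2 of them wider in Zeb1-CKO and in control, 177 genes, a mean fold percentile of 53.8, 93.8% with 1 peak, and 53.5% of regions reaching farther after the gene start. Where each library had to cover 50% there were 133 regions, 56 and 1 of them wider in Zeb1-CKO and in control, 80.5% at a gene end, 140 genes, 99.8% with 1 peak and 45.9% reaching farther after the start. With 1200 bp covered by all 4 libraries there were 26 regions, 12 and 0 of them wider in Zeb1-CKO and in control, 65.4% at a gene end, 22 genes, 99.0% with 1 peak and 38.5% reaching farther after the start. The limits of 1000 and 1500 bp and the limit of 1200 bp covered by all 4 libraries left the set of shared regions unchanged. Of those shared regions, 50% were wider in both Zeb1-CKO and 2.15% in both control libraries. Counts of wider regions given here without such a share are not read as results about the broad regions. Peaks merged within 1 kb gave 93.5% with 1 peak. Scaling by library mean left 132 and 105 regions wider in Zeb1-CKO and in control (22.3% and 17.7%), beside 15.0% and 24.2% of all shared regions. The share at a gene end was 77.7% with a window of 3 kb and 59.9% with gene starts only. Leaving out each library in turn gave 442 to 824 regions, 378 to 692 genes, a difference in covered width of 309.7 to 418 bp, 285 to 496 regions wider in Zeb1-CKO and 27 to 107 in control, 68.4 to 71.1% at a gene end and a mean fold percentile of 47.0 to 52.4. Without Zeb1-CKO replicate 1, 63.9% of all shared regions were wider in Zeb1-CKO and 7.26% in control. Without Zeb1-CKO replicate 2 these shares were 64.6% and 7.72%. The upper ends of the numbers of regions, genes and wider regions came without control replicate 1, and at most 6 widths at named genes moved, without Zeb1-CKO replicate 1, where 45 of the 47 gave a value. A width counted as moved when it changed by at least the SD of that region's covered bp over the 4 libraries. Taken as the longest stretch covered by all 4 libraries, all 47 widths moved. Without the 9 regions in the first 3.2 Mb, 584 regions gave a difference of 352 bp and 285 and 8 regions wider in Zeb1-CKO and in control. The cause of these shifts was not tested, beyond the smaller or larger number of regions that each limit keeps.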
